A study of Mus musculus with 2 samples.

Results

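The fibrillar collagen genes described here are Col1a1 (ENSMUSG00000001506), Col1a2 (ENSMUSG00000029661), Col2a1 (ENSMUSG00000022483), Col3a1 (ENSMUSG00000026043), Col5a1 (ENSMUSG00000026837), Col5a2 (ENSMUSG00000026042), Col5a3 (ENSMUSG00000004098) and Col11a1 (ENSMUSG00000027966). They were taken by symbol from the gene list of the count matrices and make up 8 of its 32285 genes. The study asked how mutating matrix Gla protein (MGP), a secreted inhibitor of bone morphogenetic protein (BMP) signalling, bears on BMP-regulated differentiation in the aortic media. Droplet single-cell RNA sequencing gave 1 library of aortic cells from knock-in mice carrying the mutated MGP (MGP-KI) and 1 library from wild-type mice, both aged 1 month and of both sexes. In both, the adventitia was dissected away, the tissue was digested with Liberase and DNase, and dead cells stained by DAPI were sorted out. Both libraries carry the same batch label, and neither the mutated residue nor the number of mice per library is given in the sources used here. With 1 library per genotype, no difference between genotypes has a replicate check and no p-value is given. The 95% intervals below are exact and cover counting error only.

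Fibrillar collagens are secreted as rod-shaped triple helices, trimmed outside the cell and packed into the banded fibrils that bear load in the arterial wall. Type I collagen combines Col1a1 and Col1a2 chains and gives fibrils their stiffness, while Col3a1 alone forms type III collagen, which is plentiful in distensible vessels. Human mutations of the type III gene cause the vascular form of Ehlers-Danlos syndrome, in which arteries rupture. Col5a1, Col5a2 and the more narrowly used Col5a3 are chains of type V collagen, which starts fibrils and limits their width. Col11a1 is a type XI chain with the same role in cartilage, where Col2a1, the type II chain, is the main fibril former. In the aorta both smooth muscle cells (SMCs) and fibroblasts make fibrillar collagen.

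The libraries held 85831737 UMIs (unique molecular identifiers, single counted transcripts) in the knock-in and 79626104 UMIs in the wild-type. After removal of barcodes with few UMIs, barcodes with much mitochondrial RNA and likely doublets, 6089 knock-in and 3588 wild-type cells remained, with median depths of 11650 UMIs and 20395.5 UMIs. The libraries shared 4 barcodes among the kept cells. Cells were clustered without the 8 collagen genes, and clusters were named from marker genes. All 12 SMC markers were detected in SMC-like cells (a summed level of 42683 CPM in knock-in and 45380.3 CPM in wild-type cells), where CPM is the population's UMIs of a gene per 1000000 of its UMIs. All 14 fibroblast markers were detected in fibroblast-like cells (26761 and 24190.2 CPM in knock-in and wild-type cells). SMC-like cells were 2330 knock-in and 236 wild-type cells, and 38.3% of knock-in against 6.58% of wild-type cells. Fibroblast-like cells were a cluster led by Fmod and Ccn5 (1381 knock-in and 1315 wild-type cells) and one led by Tmem100 and Ly6c1 (426 and 763 cells). A cluster led by Entpd2 and Cpz (1064 knock-in and 548 wild-type cells) carried fibroblast markers but also had a pericyte marker among its leading genes, and one led by Sncg and Timp4 (243 and 48 cells) carried SMC markers with the same exception. Both are therefore described apart. Clusters led by Mdga2 and Rgs5 (193 and 57 cells) and by Erbb4 and Igfbp2 (53 and 87 cells) carried both SMC and fibroblast markers and have no name. Endothelial-like cells numbered 47 in the knock-in and 63 in the wild-type library, and cells like macrophages or monocytes 292 and 352. A cycling cluster of 60 knock-in and 119 wild-type cells is not compared, because its knock-in cells carried T or NK cell markers at a summed 2267 CPM, against 36.3 CPM in its wild-type cells.

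Collagen RNA was spread through the cells of the wall in a steep gradient. Over all kept cells the 8 genes made up 2.79% of UMIs in the knock-in and 5.47% in the wild-type library. They reached 6.61% and 8.74% of UMIs in knock-in and wild-type cells of the Entpd2 Cpz cluster, and 5.61% and 6.97% in the Fmod Ccn5 fibroblast-like cells. The shares were 4.74% and 5.64% in the Tmem100 Ly6c1 fibroblast-like cells and 0.691% and 0.935% in SMC-like cells. Macrophage or monocyte-like cells, which are not collagen makers, held 0.0344% in the knock-in and 0.114% in the wild-type, which is used below as the background of free RNA. A single wild-type cell weighs on this value, and without the highest cell of each library the shares were 0.0332% and 0.0609%. Barcodes with at most 100 UMIs, which hold mostly such free RNA, had 2.35% and 3.70% of their UMIs on the 8 genes. The plot of levels by population shows this gradient gene by gene.

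**Figure D1:**
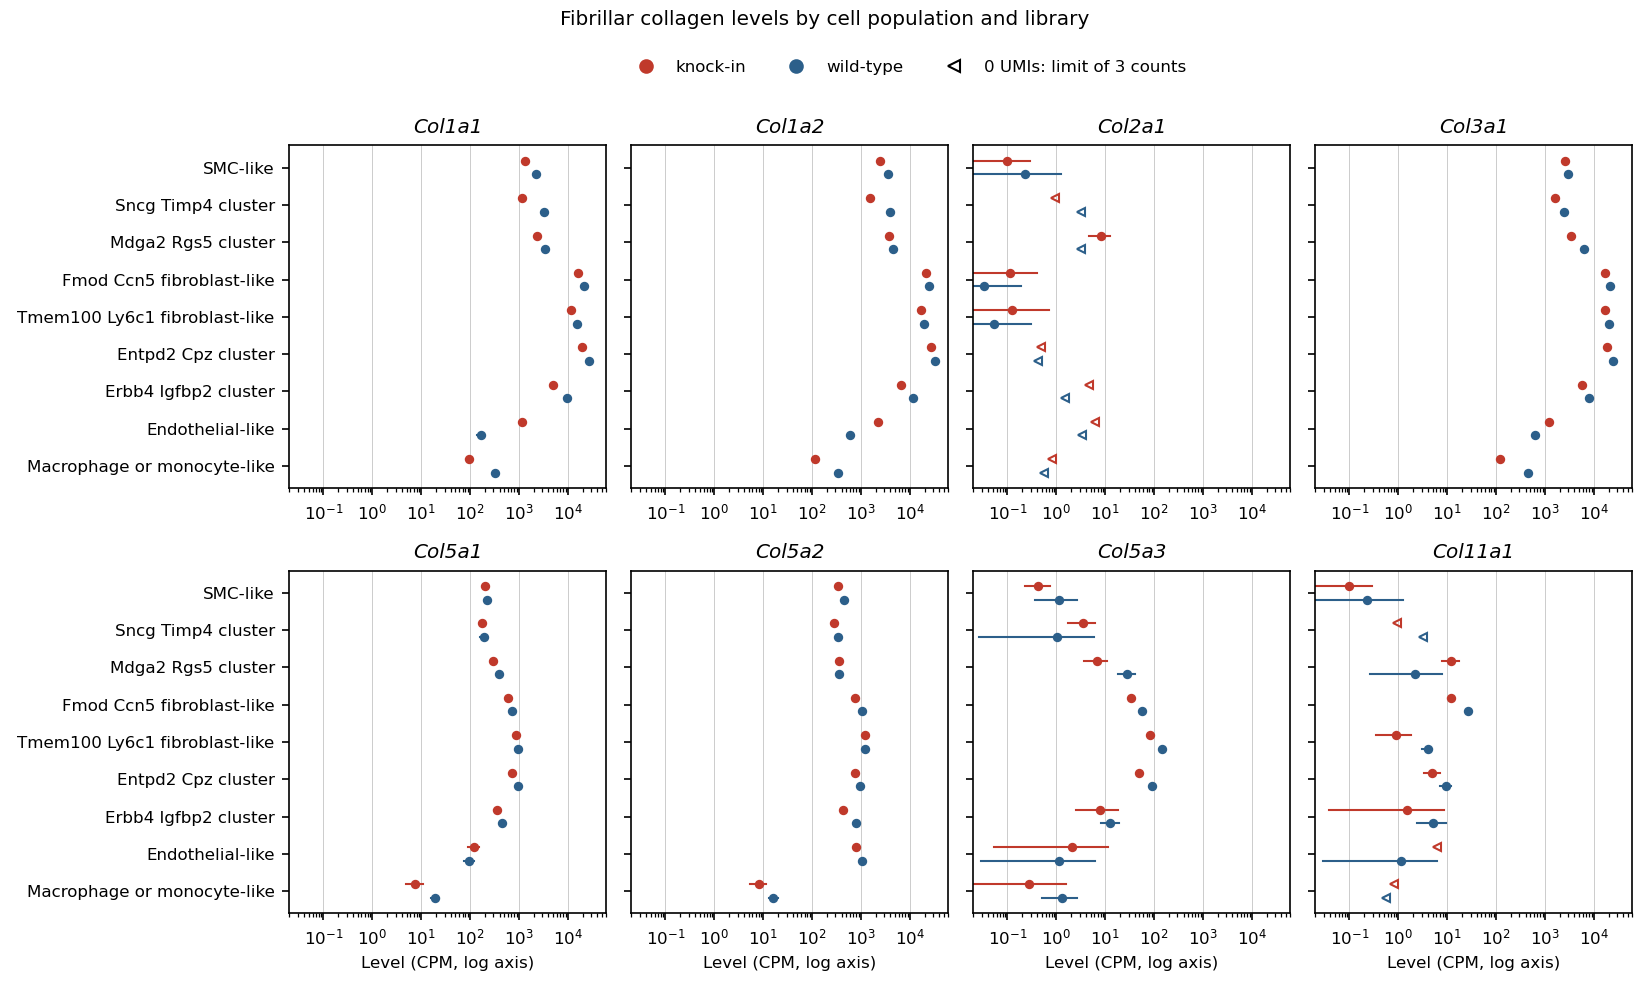
Level of each fibrillar collagen gene (x axis, CPM on a log axis) in 9 cell populations (y axis), with knock-in points above wild-type points in each row and 95% counting intervals as lines. Open triangles mark populations with 0 UMIs at the limit that 3 counts allow. Fibroblast-like and Entpd2 Cpz cells sit highest for Col1a1, Col1a2, Col3a1, Col5a1 and Col5a3, Col2a1 is near the floor in all populations but the knock-in Mdga2 Rgs5 cluster, and Col5a2 reaches 797 CPM in knock-in and 1043 CPM in wild-type endothelial-like cells.

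Type I collagen ranked the populations in nearly the same order in both libraries. Col1a1 stood at 19429 CPM in knock-in and 27128 CPM in wild-type Entpd2 Cpz cells, at 16226 and 21305 CPM in Fmod Ccn5 cells and at 11566 and 15112 CPM in Tmem100 Ly6c1 cells. It stood at 5036 and 9406 CPM in the Erbb4 Igfbp2 cluster, at 2299.6 and 3379 CPM in the Mdga2 Rgs5 cluster and at 1327 and 2176 CPM in SMC-like cells. These 6 populations had the same order in both libraries, whereas the Sncg Timp4 cluster (1126 and 3201 CPM) lay below SMC-like cells in the knock-in and above them in the wild-type. Without the 3 highest cells of each library it stood at 1099 and 1527 CPM, below SMC-like cells (1324 and 2139 CPM) in both libraries. Endothelial-like cells also changed place with macrophage or monocyte-like cells and are treated below, since a few cells set their values.

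In fibroblast-like cells the 2 chains of type I collagen and the type III chain had lower levels in the knock-in library, by less than 1.5-fold. Col1a1 was at 14801 CPM (95% interval 14754 to 14848) in knock-in and 18943 CPM (18904 to 18981) in wild-type fibroblast-like cells. The log2 ratio of knock-in over wild-type was -0.36 (95% interval -0.36 to -0.35). For Col1a2, the partner chain, the levels were 20034 and 22739 CPM and the log2 ratio was -0.18 (95% interval -0.19 to -0.18). Col3a1 stood at 16985 CPM in knock-in and 20939 CPM in wild-type cells, a log2 ratio of -0.30 (95% interval -0.31 to -0.30). All 3 intervals exclude 0, but they carry no error between animals or libraries. Over the 13860 genes with 50 or more UMIs in the libraries together, the median log2 ratio was -0.06 in these cells. Both fibroblast-like clusters lay on the same side, with Col1a1 at -0.39 in the Fmod Ccn5 and -0.39 in the Tmem100 Ly6c1 cells, Col1a2 at -0.21 and -0.20, and Col3a1 at -0.35 and -0.22. In the Entpd2 Cpz cluster the values were -0.48 for Col1a1, -0.33 for Col1a2 and -0.42 for Col3a1, beside a median over all its measured genes of -0.11. Median depths in this cluster were 4315 UMIs in knock-in and 12351 UMIs in wild-type cells. Among its cells of at least 5000 UMIs, deeper cells tended to have higher collagen levels. The Spearman correlation of level with depth was 0.31 in knock-in and 0.42 in wild-type cells for Col1a1. It was 0.27 and 0.32 for Col1a2 and 0.40 and 0.44 for Col3a1. The part of depth in the cluster's ratios was not tested.

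Of the 7 collagen genes measured in fibroblast-like cells, meaning genes with at least 50 UMIs over both libraries, 2 were at least 1.5-fold lower in the knock-in and 0 were at least 1.5-fold higher. Among all 13860 genes measured there, 7.6% were lower by that much and 7.52% were higher. At 2-fold, Col11a1 alone of the 7 was lower, where 2.92% of all genes were. The 2 genes past 1.5-fold were Col5a3 and Col11a1, the regulatory chains with the fewest UMIs. The bases before their annotated starts are shown beside those of Col3a1, a member that stayed within 1.5-fold, because these are the genes whose differences the account turns on. The sequences are RefSeq promoter windows of build GRCm38.p6, limited to bases outside the gene, and were found for 5 of the 8 genes (Col1a2, Col3a1, Col5a1, Col5a3 and Col11a1). Col1a1, Col2a1 and Col5a2 had no entry. Capitals mark exact matches on either strand to 3 short motifs, which do not overlap each other here. The first is CCAAT, the CCAAT box. The second is GGGCGG, the GC box. The third is TATAAA, the TATA box.
Col5a3 (chr9:20815118-20815317, minus strand): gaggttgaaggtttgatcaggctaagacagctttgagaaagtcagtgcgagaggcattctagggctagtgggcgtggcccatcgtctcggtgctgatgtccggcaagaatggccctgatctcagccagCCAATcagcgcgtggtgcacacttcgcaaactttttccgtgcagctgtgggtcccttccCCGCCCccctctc
Col11a1 (chr3:114030290-114030478, plus strand): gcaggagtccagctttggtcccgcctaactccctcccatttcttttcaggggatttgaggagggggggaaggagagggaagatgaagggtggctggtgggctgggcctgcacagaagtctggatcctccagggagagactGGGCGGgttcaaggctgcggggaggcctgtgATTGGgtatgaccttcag
Col3a1 (chr1:45311288-45311537, plus strand): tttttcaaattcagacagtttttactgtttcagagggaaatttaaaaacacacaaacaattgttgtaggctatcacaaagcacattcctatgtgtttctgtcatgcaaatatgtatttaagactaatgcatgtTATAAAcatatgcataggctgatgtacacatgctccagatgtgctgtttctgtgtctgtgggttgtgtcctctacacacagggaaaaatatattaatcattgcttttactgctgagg
The Col5a3 and Col11a1 stretches have 58.0% and 60.3% GC, beside a median of 52.4% over all RefSeq promoter windows of 250 bases. Each holds 1 CCAAT box, 1 GC box and 0 TATA boxes. The Col3a1 stretch has 35.2% GC, 1 TATA box and 0 of the other motifs. Among all 32851 RefSeq promoter windows cut to the same length, a CCAAT box is found in 28.4% at 200 bases and 26.5% at 189 bases, and a GC box in 24.6% and 22.6%. A TATA box is found in 12.4% of windows of 250 bases. These matches describe letters in the window only. Col1a2 and Col5a1 also stayed within 1.5-fold, but their windows are not shown. The 3 stretches therefore cannot tell whether such letters go with the differences between libraries.

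Col5a3, the least widely used type V chain, was mainly a fibroblast transcript. The knock-in library held 638 UMIs of it in Tmem100 Ly6c1 cells, 612 in Fmod Ccn5 cells and 299 in Entpd2 Cpz cells, and the wild-type library held 2682, 1652 and 623. SMC-like cells had 13 UMIs in 2330 knock-in cells and 5 UMIs in 236 wild-type cells. Its level in fibroblast-like cells was 48.3 CPM (45.6 to 51.0) in the knock-in and 89.7 CPM (87.0 to 92.4) in the wild-type, 1.86-fold lower in the knock-in with a log2 ratio of -0.89 (95% interval -0.99 to -0.80). Within clusters it stood at 80.5 and 146 CPM in knock-in and wild-type Tmem100 Ly6c1 cells (log2 ratio -0.85 (95% interval -0.98 to -0.73)). In Fmod Ccn5 cells it was at 34.0 and 55.3 CPM (-0.70 (95% interval -0.84 to -0.56)). In Entpd2 Cpz cells it was at 49.2 and 89.2 CPM (-0.86 (95% interval -1.06 to -0.66)). The gene was thus at least 1.5-fold lower in all 3 clusters in which it was measured, where 11.0% (Tmem100 Ly6c1), 6.63% (Fmod Ccn5) and 8.54% (Entpd2 Cpz) of all measured genes were, and in both libraries the Tmem100 Ly6c1 cells were the highest. Female fibroblast-like cells, told from male ones by Xist and Y-linked RNA in each mouse cell, gave a log2 ratio of -0.92, male ones -0.90, and cells of 8000 to 20000 UMIs -1.07. With each cell thinned to 2000 UMIs, 13.9% of knock-in and 25.8% of wild-type Tmem100 Ly6c1 cells had a Col5a3 UMI, against 0 of 291 knock-in (which allows up to 1.03%) and 0.285% of wild-type macrophage or monocyte-like cells. Unthinned, the shares in Tmem100 Ly6c1 cells were 59.9% at a median of 17642 UMIs and 82.7% at a median of 23488 UMIs.

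Col11a1 was the most restricted of the measured genes. Its UMIs lay mostly in the Fmod Ccn5 cells, which held 214 UMIs in 139 knock-in cells and 784 UMIs in 388 wild-type cells. These were 75.9% of all Col11a1 UMIs of the knock-in library and 80.9% of those of the wild-type library. The level there was 11.9 CPM (10.4 to 13.6) in the knock-in and 26.2 CPM (24.4 to 28.1) in the wild-type, 2.20-fold lower in the knock-in (log2 ratio -1.14 (95% interval -1.37 to -0.92)). In Tmem100 Ly6c1 cells 7 knock-in and 73 wild-type UMIs gave a log2 ratio of -2.16 (95% interval -3.53 to -1.05), and in Entpd2 Cpz cells 30 and 65 UMIs gave -0.91 (95% interval -1.59 to -0.27). Over both fibroblast-like clusters the levels were 8.53 and 17.7 CPM in knock-in and wild-type cells and the log2 ratio was -1.06 (95% interval -1.28 to -0.84). The difference was in the same direction in female (-1.12) and male (-1.04) cells and within the depth window of 8000 to 20000 UMIs (-0.74). Thinned to 2000 UMIs, 2.25% of knock-in and 4.49% of wild-type Fmod Ccn5 cells had a Col11a1 UMI. Unthinned, 10.1% of knock-in cells at a median of 12723 UMIs and 29.5% of wild-type cells at a median of 22547 UMIs had one, while 0 of 292 knock-in and 0 of 352 wild-type macrophage or monocyte-like cells did, which allows shares of up to 1.03% and 0.852%. Fmod Ccn5 cells with a Col11a1 UMI had Col1a1 at 17159 CPM in the knock-in and 22734 CPM in the wild-type, close to the 16113 and 20652 CPM of the cells without one. In wild-type Tmem100 Ly6c1 cells the gap was wider, with Col1a1 at 23131 CPM in the 38 cells with a Col11a1 UMI and 14682 CPM in the 725 without. The 6 knock-in cells of that cluster with a Col11a1 UMI had Col1a1 at 12352 CPM, beside 11554 CPM in the 420 others.

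The other type V chains differed less. Col5a1 stood at 684 CPM in knock-in and 814 CPM in wild-type fibroblast-like cells (log2 ratio -0.25 (95% interval -0.28 to -0.23)). Col5a2 stood at 872 and 1107 CPM (-0.34 (95% interval -0.37 to -0.32)). For Col5a2 the 2 fibroblast-like clusters gave unlike values, -0.51 (95% interval -0.54 to -0.48) in Fmod Ccn5 cells (736 and 1049 CPM) and -0.02 (95% interval -0.06 to 0.01) in Tmem100 Ly6c1 cells (1182 and 1201 CPM). The counting intervals of these ratios do not overlap. Col5a1 gave -0.29 in Fmod Ccn5 and -0.11 in Tmem100 Ly6c1 cells.

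Markers of other cells moved with the genotype in some of these clusters. SMC markers summed to 514 CPM in knock-in and 122 CPM in wild-type Tmem100 Ly6c1 cells, and to 1162 and 134 CPM in Entpd2 Cpz cells. All 8 mesothelial markers reached 3 UMIs in wild-type Tmem100 Ly6c1 cells (a summed 123 CPM), against 1 of 8 in the knock-in (1.14 CPM). Clustering at the finer resolution of 1.0 divided the fibroblast-like cells unevenly between libraries, with 884 knock-in and 144 wild-type cells in a cluster led by Inmt and G0s2 and 121 and 558 cells in one led by Lrp1b and Erbb4. The part of these differences in the collagen values was not tested.

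SMC-like cells expressed type I, III and V collagen at a lower level than fibroblast-like cells, and 5 of the 8 genes were measured. Col1a1 was at 1327 CPM (1314 to 1339.9) in knock-in and 2176 CPM (2133 to 2220.4) in wild-type SMC-like cells. It was 1.64-fold lower in the knock-in (log2 ratio -0.71 (95% interval -0.75 to -0.68)). It was the 1 gene of the 5 past 1.5-fold, and 0 were higher, where 7.29% of the 12033 genes measured in these cells were lower by that much and 8.52% were higher. At 2-fold 0 of the 5 were lower, where 2.09% of all genes were. Col1a2 came next, with 2444 CPM in the knock-in and 3562 CPM in the wild-type (-0.54 (95% interval -0.57 to -0.52)), a 1.46-fold difference just short of the limit. Col5a2 was at 334 and 452 CPM (-0.44 (95% interval -0.51 to -0.37)). Col3a1 (2602 and 2939.6 CPM, -0.18 (95% interval -0.20 to -0.15)) and Col5a1 (198 and 218 CPM, -0.14 (95% interval -0.24 to -0.04)) lay closer to 0, and the median of all measured genes was -0.03. Col2a1, Col5a3 and Col11a1 had 3, 13 and 3 UMIs in knock-in and 1, 5 and 1 UMIs in wild-type SMC-like cells.

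The type I difference in SMC-like cells stood beside several technical values. Free RNA was estimated at 157 CPM of Col1a1 in the knock-in and 343 CPM in the wild-type, and after its subtraction the log2 ratio was -0.65 for Col1a1, -0.53 for Col1a2 and -0.12 for Col3a1. The wild-type estimate rests in part on 1 macrophage or monocyte-like cell. Without the highest such cell of each library the estimates were 153 and 246 CPM in knock-in and wild-type and the ratios -0.72, -0.56 and -0.16. Col1a1 measured in these remaining macrophage or monocyte-like cells was 91.0 and 182 CPM. The scaling by fibroblast markers thus subtracted more Col1a1 than was found there, and by unlike amounts in the libraries. Fibroblast markers (all 14 detected) summed to 1645 CPM in knock-in and 2153 CPM in wild-type SMC-like cells, and their part in the result was not tested. The median share of mitochondrial UMIs was 4.69% in knock-in and 3.32% in wild-type SMC-like cells. Median depth was 12246.5 UMIs in knock-in and 17360.5 UMIs in wild-type SMC-like cells, and in cells of 8000 to 20000 UMIs (1983 and 143 cells) Col1a1 stood at -0.68 and Col1a2 at -0.48. Female cells (1366 knock-in, 92 wild-type) gave -0.85 for Col1a1 and -0.64 for Col1a2. Male cells (684 and 124) gave -0.52 and -0.38, so that the Col1a1 difference in male cells fell short of 1.5-fold. Thinned to 2000 UMIs, 89.1% of knock-in and 95.8% of wild-type SMC-like cells had a Col1a1 UMI (99.8% and 100% unthinned). In macrophage or monocyte-like cells the shares were 17.2% and 35.6% (66.4% and 90.6% unthinned, at medians of 11408.5 and 15004 UMIs).

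**Figure D2:**
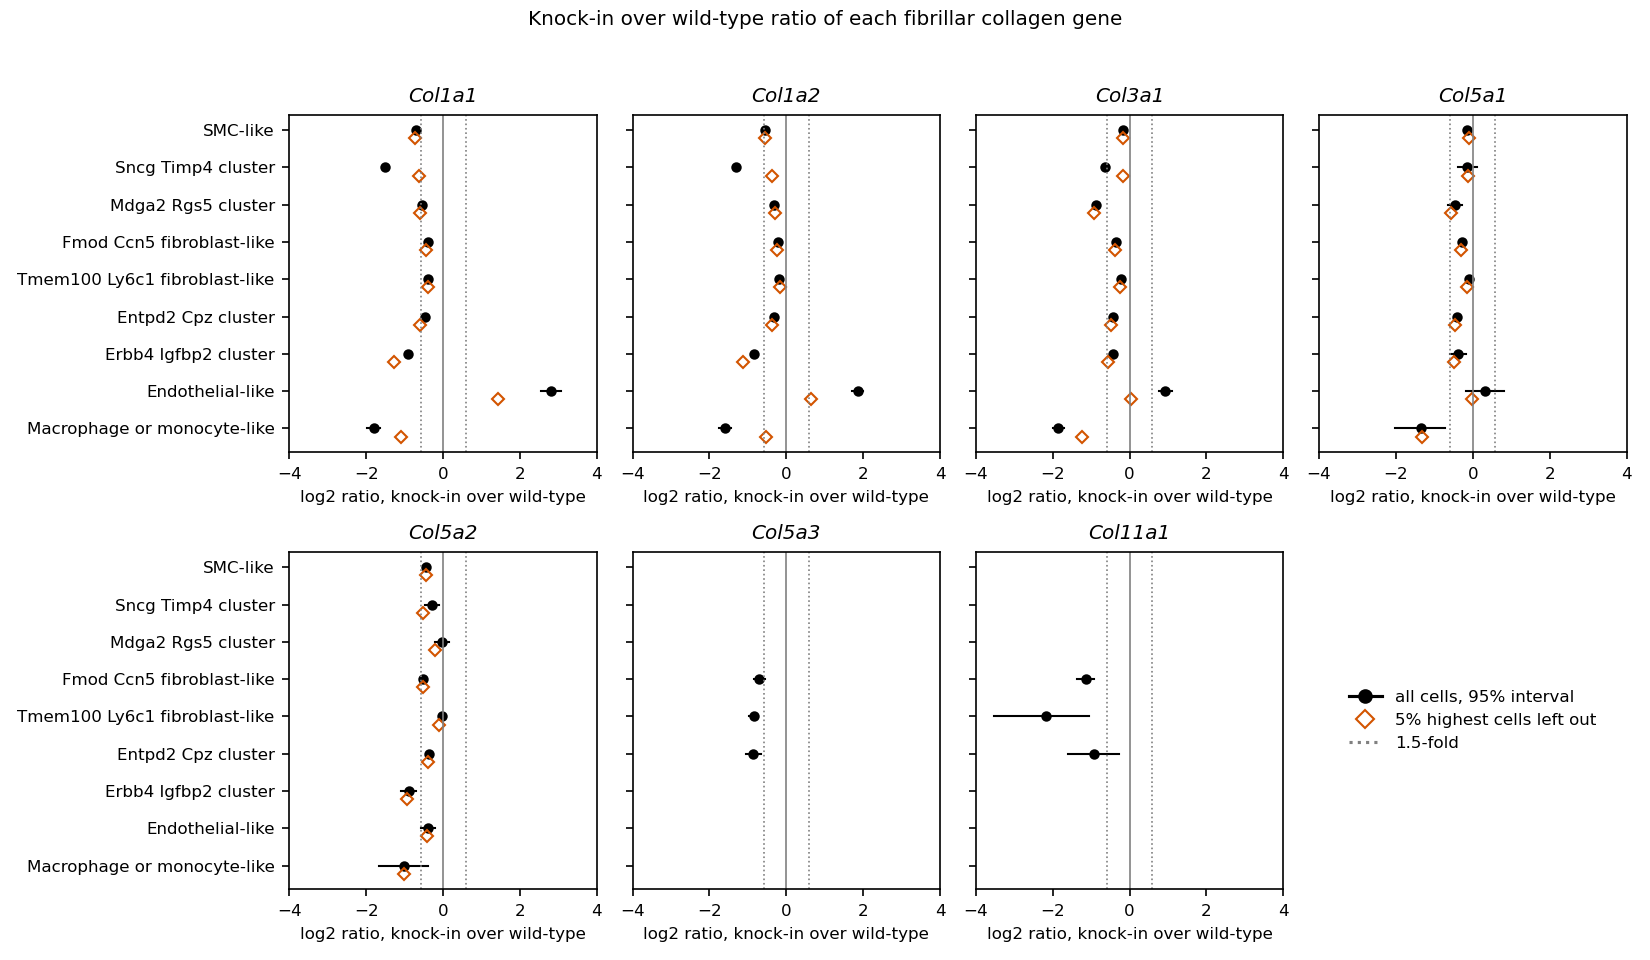
Log2 ratio of knock-in over wild-type (x axis) for 7 fibrillar collagen genes in each population (y axis) where the gene had at least 50 UMIs. Black points with lines are ratios of summed UMIs with 95% counting intervals, orange diamonds leave out the 5% of cells with the highest level in each library, and dotted lines mark 1.5-fold. Most points lie left of 0, while Col1a1, Col1a2 and Col3a1 lie right of 0 in endothelial-like cells (2.81, 1.85 and 0.93).

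The spread over single cells was wider than the shift between libraries in fibroblasts. Col1a1 in Fmod Ccn5 cells had a median of 14444 CPM and 10th and 90th percentiles of 5386 and 27030.4 CPM in the knock-in. In the wild-type the median was 20352 CPM and the percentiles were 8646 and 33736 CPM. The distributions overlap over most of their range. In Tmem100 Ly6c1 cells the same percentiles of Col1a1 spanned 3073 to 24169.7 CPM in knock-in and 4176 to 29774 CPM in wild-type cells. SMC-like cells were tighter, with a Col1a1 median of 1177 CPM and percentiles of 579 and 2108 CPM in the knock-in. Wild-type SMC-like cells had a median of 1889.7 CPM and percentiles of 1188 and 3446 CPM, so that the 10th percentile of wild-type cells lay close to the knock-in median. Col3a1 medians in SMC-like cells were closer, at 2431 CPM in knock-in and 2799 CPM in wild-type cells.

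**Figure D3:**
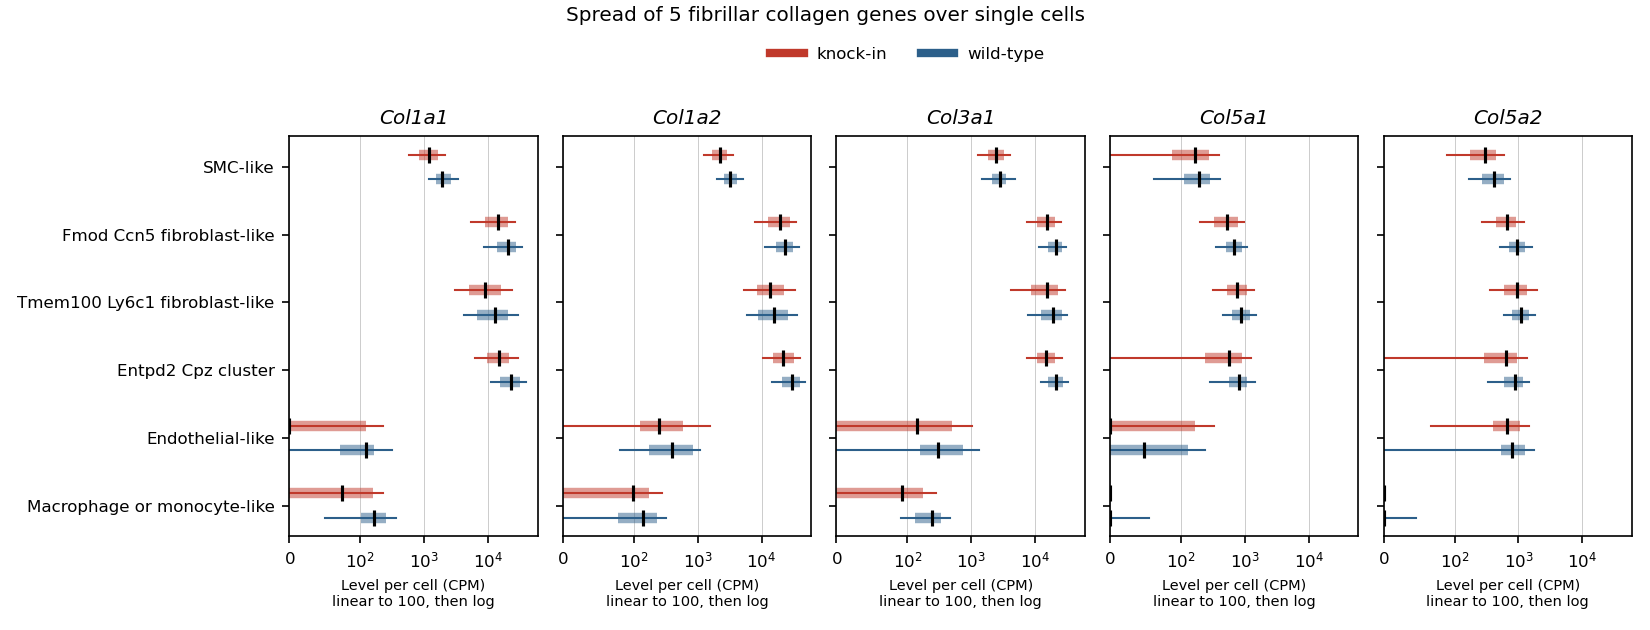
Level per cell (x axis, CPM, linear up to 100 and logarithmic above) of 5 fibrillar collagen genes in 6 populations (y axis), knock-in above wild-type. Thin lines run from the 10th to the 90th percentile of cells, thick bars from the 25th to the 75th, and black ticks are medians. The Col1a1 median of SMC-like cells is 1177 CPM in the knock-in and 1889.7 CPM in the wild-type, and the bars of the 2 libraries overlap in each population for Col3a1.

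Cells with much of one type I chain had much of the other. In cells of at least 5000 UMIs, the Spearman correlation of Col1a1 with Col1a2 over cells was 0.93 in Fmod Ccn5 cells of both libraries (1327 knock-in and 1309 wild-type cells) and 0.96 in Tmem100 Ly6c1 cells of both (413 and 755 cells). In SMC-like cells it was 0.56 in the knock-in and 0.75 in the wild-type (2303 and 232 cells). Col1a1 with Col3a1 gave 0.75 and 0.67 in Fmod Ccn5 cells of the knock-in and wild-type. These are descriptions over cells that share a library and a normalization.

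The balance of chains differed between populations and, for type I, between libraries. Col1a1 UMIs per Col1a2 UMI were 0.752 (95% interval 0.748 to 0.755) in knock-in and 0.851 (0.848 to 0.853) in wild-type Fmod Ccn5 cells. They were 0.543 (0.536 to 0.549) in knock-in and 0.611 (0.596 to 0.627) in wild-type SMC-like cells. The ratio was thus lower in SMC-like than in fibroblast-like cells within each library, and lower in the knock-in within each of these populations. In near-empty barcodes, which carry free RNA, it was 0.821 in the knock-in and 1.08 in the wild-type, so the ratio of the free RNA also differed between the libraries in that direction, and its part in the cells' difference was not tested. Since counting may treat the chains unequally, only the difference of the ratio between samples is read here, not its distance from 1. Col1a1 per Col3a1 was 0.510 and 0.740 in knock-in and wild-type SMC-like cells, and 0.871 and 0.905 in fibroblast-like cells. Col5a1 per Col5a2 lay the other way from type I in some populations, at 0.592 (0.573 to 0.611) in knock-in and 0.483 (0.447 to 0.522) in wild-type SMC-like cells, and 0.808 and 0.693 in Fmod Ccn5 cells. It was also higher in knock-in Erbb4 Igfbp2 cells, at 0.816 (0.682 to 0.974) against 0.572 (0.526 to 0.620). In Sncg Timp4 (0.617 and 0.557) and endothelial-like cells (0.150 and 0.0918) the intervals of the libraries overlapped. In Tmem100 Ly6c1 cells it was 0.749 in the knock-in and 0.796 in the wild-type. The Mdga2 Rgs5 cluster (0.827 and 1.11) was lower in the knock-in too, while the intervals of Entpd2 Cpz cells (0.956 and 0.982) overlapped. Near-empty barcodes had 0.867 in the knock-in and 0.741 in the wild-type, and the part of free RNA here was not tested.

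**Figure D4:**
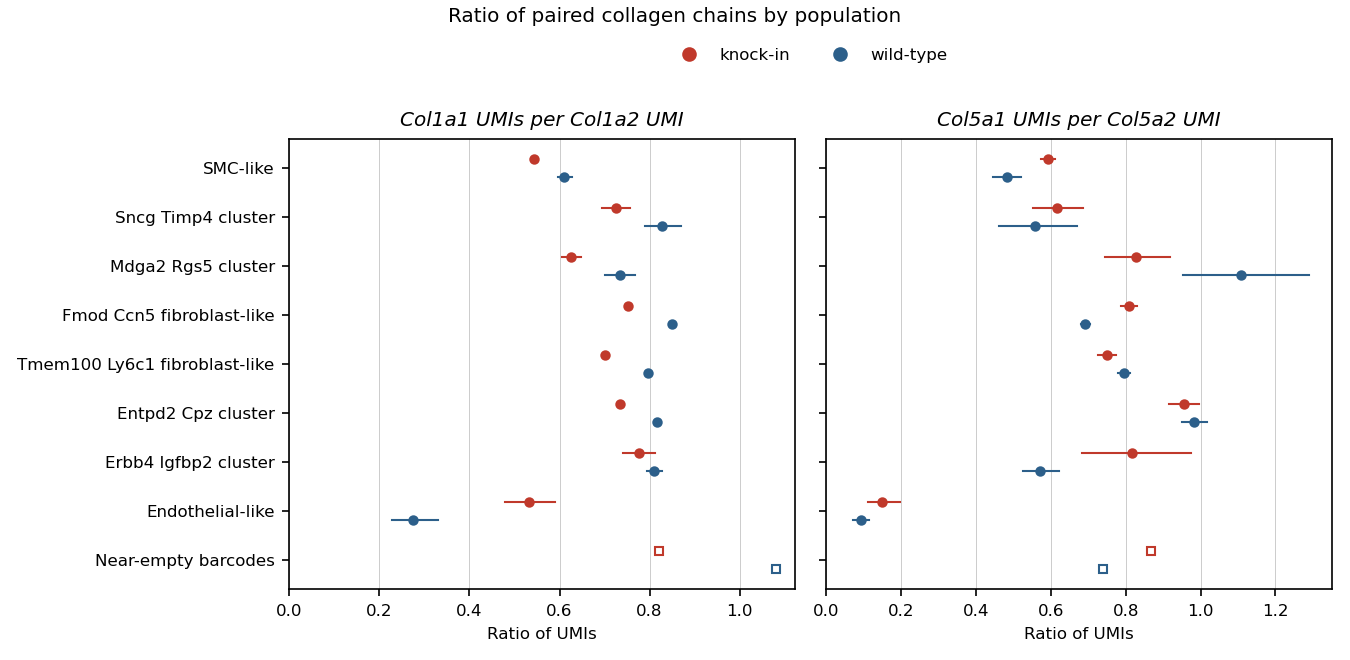
Ratio of UMIs of paired collagen chains (x axis), Col1a1 per Col1a2 on the left and Col5a1 per Col5a2 on the right, in 8 cell populations and in near-empty barcodes (y axis), with knock-in above wild-type. Lines are 95% counting intervals, and open squares are near-empty barcodes, drawn without one. The knock-in Col1a1 ratio lies left of the wild-type one in 7 of the 8 populations, and the Col5a1 ratio is lowest in endothelial-like cells (0.150 and 0.0918 in knock-in and wild-type).

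Endothelial-like cells carried Col5a2 at a level near that of fibroblast-like cells, while their Col1a1, Col1a2 and Col3a1 lay far below fibroblast-like levels in both libraries. Col5a2 stood at 797 CPM (719 to 880.0) in 47 knock-in and 1043 CPM (977 to 1112) in 63 wild-type cells, beside 872 and 1107 CPM in fibroblast-like cells, while Col5a1 was at 119 and 95.7 CPM. Thinned to 2000 UMIs, 67.4% of knock-in and 71.4% of wild-type endothelial-like cells had a Col5a2 UMI, against 2.06% and 3.13% of macrophage or monocyte-like cells. The unthinned shares were 89.4% and 84.1% in endothelial-like cells at medians of 8820 and 12557 UMIs, and 8.56% and 13.6% in macrophage or monocyte-like cells. Type V chains made up 16.8% of the 8 genes' UMIs in knock-in and 44.9% in wild-type endothelial-like cells, against 3.0% and 3.11% in fibroblast-like cells. The 3 cells described next lower the knock-in share.

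The summed UMIs of 3 other genes were higher in knock-in endothelial-like cells, but a few cells held them. Of 5 measured genes, 3 were at least 1.5-fold higher and 0 lower, where 7.66% of the 4607 genes measured were higher by that much and 11.3% lower. Col1a1 was at 1165 CPM in the knock-in and 167 CPM in the wild-type (log2 ratio 2.81), Col1a2 at 2188 and 606 CPM (1.85) and Col3a1 at 1189.7 and 624 CPM (0.93). The 3 knock-in cells with the most collagen held 542 of the 566 Col1a1 UMIs, and they also carried 117, 289 and 284 UMIs of fibroblast markers. Without the 3 highest cells of each library, Col1a1 stood at 53.4 CPM in the knock-in and 124 CPM in the wild-type (log2 ratio -1.22), Col1a2 at -0.41 and Col3a1 at -0.76, turned to the other side of 0. Leaving out only the 5% of cells highest in each gene kept them at 1.42, 0.64 and 0.03. Col5a2 was hardly touched, at -0.39 with all cells and -0.32 without those 3. The fibroblast markers of the whole population (14 of 14 detected) summed to 3602 CPM in knock-in and 2750.1 CPM in wild-type endothelial-like cells.

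The background was read in macrophage or monocyte-like cells. Col1a1 stood there at 93.7 CPM in the knock-in and 327 CPM in the wild-type, Col3a1 at 121 and 438 CPM, and Col5a2 at 8.04 and 16.2 CPM. All 5 measured genes were at least 1.5-fold lower in the knock-in (log2 ratios from -1.85 to -1.01), where 6.93% of the 9461 genes measured were lower by that much. A single wild-type cell held 795 of the 1777 Col1a1 UMIs together with 783 UMIs of fibroblast markers. Without the 3 highest cells of each library the ratios lay between -1.15 (Col3a1) and -0.36 (Col5a2), and 3 of the 5 genes were past 1.5-fold. The background was therefore higher in the wild-type library, in the same direction as the differences in fibroblast-like and SMC-like cells. Its Col1a1 level lay well below that of SMC-like cells, 93.7 against 1327 CPM in knock-in and 327 against 2176 CPM in wild-type. For Col3a1 the gap between libraries in the background was not small beside that in SMC-like cells. Without the 3 highest cells of each library, Col3a1 stood at 111 CPM in knock-in and 247 CPM in wild-type macrophage or monocyte-like cells. In SMC-like cells it then stood at 2599 and 2876 CPM.

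Col1a1, Col1a2 and Col3a1 also had ratios below 0 in 3 smaller clusters. In the Sncg Timp4 cluster Col1a1 stood at 1126 CPM in 243 knock-in and 3201 CPM in 48 wild-type cells, and 3 of 5 measured genes were at least 1.5-fold lower where 7.37% of 7733 genes were. A single wild-type cell held 1611 of the 3043 Col1a1 UMIs there, and without the 3 highest cells of each library the Col1a1 ratio was -0.47 in place of -1.51, with 0 of 5 genes past 1.5-fold. Col3a1 then stood at 0.01 (95% interval -0.08 to 0.10). In the Mdga2 Rgs5 cluster 1 of 5 genes, Col3a1, was past 1.5-fold, at 3362 CPM in knock-in and 6162 CPM in wild-type cells (-0.87 (95% interval -0.92 to -0.82)), where 10.5% of 7638 genes were. Of the cells given a sex there, 79 knock-in and 0 wild-type cells were female, against 85 and 56 male cells, and in male cells alone Col3a1 stood at -1.02. In the Erbb4 Igfbp2 cluster 3 of 5 genes were past it, Col1a1 (-0.90), Col1a2 (-0.84) and Col5a2 (-0.90), where 12.6% of 6593 genes were. Without the 3 highest cells of each library these 3 stood at -1.30, -1.14 and -0.99, and Col3a1 at -0.61 was also past 1.5-fold. In the Mdga2 Rgs5 cluster Col3a1 then stood at -0.77. The last 2 clusters rest on 193 and 53 knock-in and 57 and 87 wild-type cells.

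Col2a1, the cartilage collagen, was close to absent. The kept cells held 24 UMIs of it in the knock-in and 3 in the wild-type. Of the 24, 18 lay in 2 cells of the Mdga2 Rgs5 cluster. The first of these cells had 10 Col2a1 UMIs among its 6575 UMIs, with 7 each of Col11a1, of the cartilage proteoglycan gene Acan and of Sox9, the transcription factor that switches on Col2a1 in cartilage. The second had 8 Col2a1 UMIs among 6508 UMIs, with 2 of Col11a1, 3 of Acan, 4 of Sox9 and 19 of Chad, which encodes a cartilage matrix protein. The cartilage gene Matn1 had 0 UMIs in both. With a count in 2 cells of 1 library, no comparison between genotypes is made. The Mdga2 Rgs5 cluster also held 27 knock-in Col11a1 UMIs in 6 cells, 15 of them in 1 cell, and 2 wild-type UMIs.

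Over all kept cells together the 7 measured genes were all at least 1.5-fold lower in the knock-in, where 14.9% of 16092 genes were lower by that much. Col1a1 was at 7551 CPM in the knock-in and 16133 CPM in the wild-type (log2 ratio -1.10), and the other 6 ranged from -1.80 (Col11a1) to -0.77 (Col5a1). The make-up of the libraries enters this value, because SMC-like cells, with less collagen RNA, made up 38.3% of knock-in and 6.58% of wild-type cells. Taking the wild-type levels with the knock-in make-up gave -0.63 for Col1a1, and taking the knock-in levels with the wild-type make-up gave -0.45. For Col1a2 these were -0.59 and -0.28, for Col3a1 -0.63 and -0.36, and for Col5a3 -0.88 and -0.85. For Col11a1 they were -0.74 and -1.20. The make-up alone gave the larger part for 6 of the 7 genes, Col11a1 being the exception. Whether the make-up reflects the tissue or the dissection and sorting cannot be told apart with 1 library per genotype.

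**Figure D5:**
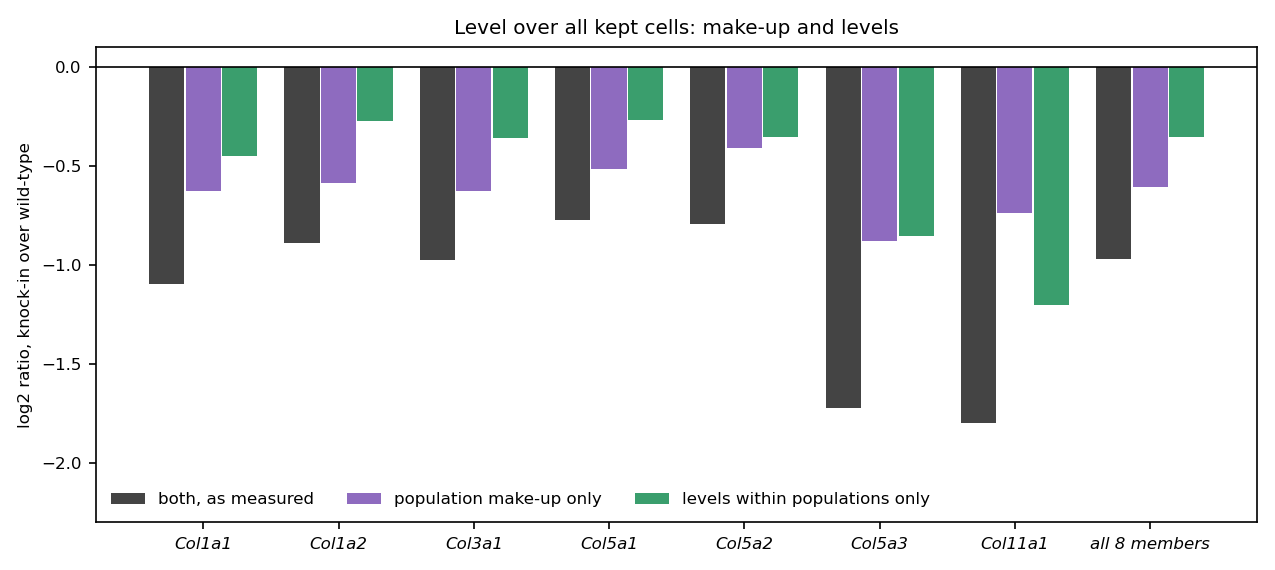
Log2 ratio of knock-in over wild-type over all kept cells (y axis) for 7 fibrillar collagen genes and the sum of all 8. Dark bars are the ratio as measured, purple bars change only the population make-up and green bars only the levels within populations. The cycling cluster is included. The purple bar reaches further below 0 than the green one for each gene but Col11a1.

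Genes that handle procollagen were counted next to the collagens. The enzymes and chaperones of chain folding and hydroxylation had 3 of 17 measured genes at least 1.5-fold lower and 0 higher in knock-in fibroblast-like cells, with a median log2 ratio of -0.30, beside -0.06 for all genes and 7.6% of all genes lower. The 3 were P4ha3 (7.68 and 13.9 CPM in knock-in and wild-type, -0.86 (95% interval -1.09 to -0.63)), a prolyl 4-hydroxylase subunit, P3h2 (6.10 and 15.2 CPM, -1.32), a prolyl 3-hydroxylase, and Colgalt2 (30 and 147 UMIs, -1.39), a collagen galactosyltransferase. Serpinh1, the collagen chaperone HSP47, stood at 1959 and 2409 CPM (-0.30 (95% interval -0.31 to -0.28)). In SMC-like cells 1 of 15 genes of this list was lower (P3h4, -0.60) and 0 higher, where 7.29% and 8.52% of all genes were. The median of the list was -0.30 there, beside -0.03 for all genes. Serpinh1 stood at 621 CPM in knock-in and 899 CPM in wild-type SMC-like cells (-0.53 (95% interval -0.58 to -0.49)).

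Export, cleavage and cross-linking genes were counted in the same way, and the difference between populations was not tested. Of 10 measured export and cleavage genes in SMC-like cells, 3 passed the limit downward and 1 upward, where 7.29% and 8.52% of all genes did, and the median log2 ratio was -0.43. The lower ones were Adamts2 (172 CPM in knock-in and 265 CPM in wild-type cells, -0.62 (95% interval -0.71 to -0.53)), which cuts the amino end off procollagen, Bmp1 (46.5 and 74.3 CPM, -0.68), which cuts the carboxyl end, and Adamts14 (-1.39). Adamts3 was higher, on 114 knock-in and 6 wild-type UMIs. In fibroblast-like cells 1 of 12 was lower, Tll1 (12 and 86 UMIs, -1.94), and 0 were higher, where 7.6% and 7.52% of all genes were. Of the lysyl oxidases, which cross-link fibrils, 1 of 5 was lower in fibroblast-like cells (Lox, 420.4 and 788 CPM in knock-in and wild-type) and 2 of 4 in SMC-like cells (Lox and Loxl2), with 0 higher in both.

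Genes of fibril assembly and breakdown split both ways. Of all measured genes, 7.52% were higher and 7.6% lower in fibroblast-like cells, and 8.52% and 7.29% in SMC-like cells. In SMC-like cells 3 of 15 assembly and 2 of 11 breakdown genes were lower, above that share but on few genes. In fibroblast-like cells 2 of 15 assembly genes were higher, the proteoglycan gene Prelp (327 CPM in knock-in and 159 CPM in wild-type cells, 1.05 (95% interval 1.00 to 1.09)) and the fibronectin gene Fn1 (1774 and 1168 CPM, 0.60), and 1 was lower (Thbs1, -0.70). Fn1 went both ways within these cells, at 5369 CPM in knock-in and 2563 CPM in wild-type Tmem100 Ly6c1 cells (1.07 (95% interval 1.05 to 1.09)) but at 190.0 and 308 CPM in Fmod Ccn5 cells (-0.70 (95% interval -0.76 to -0.64)). Thbs1 stood at -1.31 in Fmod Ccn5 and 0.00 in Tmem100 Ly6c1 cells. Dcn, whose proteoglycan coats type I fibrils, stood at 9899 and 7203 CPM (0.46). In SMC-like cells 1 of 15 was higher (Prelp, 307 and 177 CPM, 0.80) and 3 were lower (Aspn, -1.37; Thbs1, -1.55; Dpt, -1.17). Among 11 breakdown genes Timp3, which encodes a metalloproteinase inhibitor, was higher in knock-in fibroblast-like (1153 and 549 CPM, 1.07) and SMC-like cells (916 and 524 CPM, 0.80). The membrane collagenase gene Mmp14 was lower in both (-0.72 and -0.82), and the gelatinase gene Mmp2 was lower in SMC-like cells (-0.88) and at 0.41 in fibroblast-like cells. Ratios of list genes in SMC-like cells are given before subtraction of free RNA. Dpt is itself one of the fibroblast markers, whose sum was also lower in knock-in SMC-like cells. The part of fibroblast RNA in these ratios was not tested.

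Regulators of collagen genes passed 1.5-fold about as often as all genes did in fibroblast-like cells (7.52% higher and 7.6% lower). Of the transcription factors and signalling genes that act on collagen genes, 2 of 28 were higher in knock-in fibroblast-like cells (Sox9, 0.62; Tgfb2, 0.63) and 2 lower (Sox6, -0.72; Scx, -0.66 (95% interval -1.43 to 0.05) on 22 and 65 UMIs). Sox6 differed in direction between the clusters, at 0.45 in Fmod Ccn5 and -1.81 in Tmem100 Ly6c1 cells. In SMC-like cells 2 of 27 were higher (Tgfbr2, 0.63; Fli1, 0.70) and 1 lower, where 8.52% and 7.29% of all genes were. That gene was Scx, which drives type I collagen transcription in tendon, at 23.1 CPM in knock-in and 72.5 CPM in wild-type cells (-1.65 (95% interval -1.84 to -1.45)). Of the collagen receptors 1 of 8 was higher in fibroblast-like cells (Itga10, on 62 and 60 UMIs) and 0 of 6 passed the limit in SMC-like cells. The fibril-associated collagens had 0 of 4 past it in either population. Col27a1, a fibrillar collagen outside the 8, was at 34.4 CPM in knock-in and 22.6 CPM in wild-type fibroblast-like cells (0.61 (95% interval 0.48 to 0.74)), while the 7 collagen genes measured there were below 0. Its ratio was 0.63 (95% interval 0.49 to 0.77) in Fmod Ccn5 cells, -0.35 (95% interval -0.76 to 0.06) in Tmem100 Ly6c1 cells and -0.20 in SMC-like cells.

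Across 20 sums of cells (10 clusters in each of 2 libraries), Pearson's r of log2 levels named the 5 genes most like each collagen gene. Among 11508 genes with at least 500 UMIs, r with Col1a1 was highest for Col1a2 (0.99), Pdgfrl (0.98), Col3a1 (0.98), Mmp23 (0.96) and Adamts2 (0.96). Col1a2 and Col3a1 had each other as the closest gene (0.99), and Serping1, the complement inhibitor gene, was among the 5 closest to both. Col5a1 was closest to Bmp1 (0.99), Serpinh1 (0.98), Gpx8 (0.97), the fibrillin gene Fbn1 (0.97) and Tmem41a (0.97). Col5a2 had none of the 8 collagens among its 5 closest genes, which were Fstl1 (0.98), S100a16 (0.97), Tmem45a (0.97), P3h3 (0.96) and Nfib (0.96). Col5a3 was closest to Hic1 (0.96), Gfpt2 (0.95), the hyaluronan synthase gene Has1 (0.95), Lgi2 (0.95) and Sult5a1 (0.94). For Col11a1 the closest were Dio2 (0.90), Adamtsl2 (0.90), 4932411K12Rik (0.88), Angptl7 (0.87) and Prr16 (0.87). None of these was among its 5 closest by Spearman's rho. Of the genes named for Col5a1 and Col5a2, only Bmp1 and Fstl1 were. The sums share libraries and a normalization, so these values are descriptions with no test.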

How the data were processed

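The deposited files are unfiltered gene by barcode matrices of UMI counts from the authors' run of Cell Ranger 7.1.0, as the submitters' processing notes name it, and the genome build is not given in the sources used here. A barcode was kept from 1000 UMIs and 500 genes upward if mitochondrial UMIs did not exceed 10%, and the top Scrublet scores were removed as doublets (0.8% per 1000 cells). Both libraries were clustered together with scanpy 1.11.5 on 2000 variable genes without the 8 collagen genes, Mgp, mitochondrial, ribosomal, hemoglobin and sex-linked genes (30 principal components, 15 neighbours, Leiden resolution 0.5). A cluster was named from the marker list with the highest mean log2 gain and left unnamed where a second list passed 0.65 of it. It was kept apart where another list had more markers among its 10 leading genes.

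UMIs were summed per population and library and divided by the population's total (CPM, computed here from the counts). Levels have exact Poisson, ratios exact conditional binomial and shares Clopper-Pearson 95% intervals. A gene was counted as different at 1.5-fold with at least 50 UMIs over both libraries. A marker counted as detected at 3 UMIs. Cells were called female where they had Xist UMIs and none of 4 Y-linked genes, male where the reverse held, and otherwise left out of the values by sex. Free RNA was estimated per library from barcodes with at most 100 UMIs, scaled by fibroblast markers in macrophage or monocyte-like cells. Depth ranged from 1000 UMIs per cell upward, and its medians are given with the results. Collagen genes and all lists were chosen with earlier results of these data known. All 8 genes are named everywhere; from each pathway list the 4 genes with most UMIs and the 2 with the largest ratio could be named, and other named list genes are those past 1.5-fold, added after their values were seen. The ratio and interval steps were run on simulated counts for fibroblast-like and SMC-like cells. These counts had counting error only, so the run checks the computation. It cannot show how the intervals hold under variation between cells, animals or libraries. Clustering and naming were not tested in that way.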

Additional observations from a re-analysis of the deposited data

Results flagged for a closer look

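Col1a1, Col1a2 and Col3a1 stood out in endothelial-like cells because their knock-in over wild-type ratio lay on the other side of 0 from the 8 other populations compared. The log2 ratios of summed UMIs were 2.81 for Col1a1, 1.85 for Col1a2 and 0.93 for Col3a1, whereas the ratios of these genes were below 0 in each of the other 8. The difference was not tested, since each genotype has 1 library. The 3 knock-in cells with the most collagen RNA held 95.8% of the Col1a1, 82.5% of the Col1a2 and 74.9% of the Col3a1 UMIs of the knock-in population, against 33.8%, 21.6% and 27.1% for the 3 highest wild-type cells. For Col5a2 the shares were 20.4% and 18.3%. The 3 knock-in cells also held 41, 167 and 143 UMIs of the fibroblast marker Dcn.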

How the results depend on the processing

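The counts of collagen genes past 1.5-fold depended on the processing more than the directions did. In fibroblast-like cells the 2 genes became 0 when the median over cells replaced the sum (Col11a1 medians were 0 CPM in both libraries, and Col5a3 medians 0 CPM in the knock-in and 52.2 CPM in the wild-type, so neither gave a ratio) and 1 (Col11a1) at 2-fold. In SMC-like cells the 1 gene became 2, Col1a1 and Col1a2, with a minimum of 2000 UMIs, with the collagens among the variable genes, in female cells or with the Sncg Timp4 cluster added, and 0 in male cells or at 2-fold. Over the 17 alternatives per gene, Col1a1, Col1a2, Col3a1 and Col5a2 stayed below 0 in both populations. In SMC-like cells the alternative of the largest cluster alone repeats the main result and could not differ. Some alternatives also changed which cells were compared. The 2000 UMI minimum, the 5% mitochondrial maximum, resolution 1.0 and separate clustering counted clusters led by Entpd2 and Cpz, among others, as fibroblast-like. With the collagens among the variable genes, a cluster led by Erbb4 and Igfbp2 counted as SMC-like. In SMC-like cells Col1a1 ranged from -0.98 to -0.52 and Col1a2 from -0.71 to -0.38. Col5a1 was lower there in 16 of 17 and at 0.06 in male cells. In fibroblast-like cells Col1a1 ranged from -0.45 to -0.26 and Col1a2 from -0.26 to -0.02. Col5a3 ranged from -1.07 to -0.70 and Col11a1 from -2.05 to -0.74 over 16 alternatives. In endothelial-like cells the ratios turned to -1.22 (Col1a1), -0.41 (Col1a2) and -0.76 (Col3a1) without the 3 highest cells, and to -0.69 (Col1a2) and -1.13 (Col3a1) by the median over cells, but stayed above 0 at 1.42, 0.64 and 0.03 without the highest 5% of cells. In macrophage or monocyte-like cells 5 genes became 2 by the median and 3 without the 3 highest cells. Free RNA in the wild-type was 2.77% of UMIs by all macrophage or monocyte-like cells and 1.98% without the highest one. Leaving out the highest cells, taking medians and adding the Sncg Timp4 or Entpd2 Cpz clusters were chosen after seeing the data. Of the 35 genes most like a collagen gene by Pearson's r, 15 were also chosen by Spearman's rho. No paired analysis was possible because each genotype has 1 library and the values come from no test. The limits are 1 library per genotype, an unknown number of mice, and depth: genes under 50 UMIs in a population could not be compared.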
